A study of Mus musculus with 22 samples.

Results

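The measurements described here are those of untreated FE1 cells against a common reference RNA, on the 5 arrays labelled control among the 22 arrays of the series. FE1 cells descend from lung epithelium of the MutaMouse, a transgenic mouse that carries a bacterial reporter for mutation assays. The members were chosen by the label alone, and no measured value entered the choice. The study exposed FE1 cells for 24 h to the multi-walled carbon nanotube Mitsui7 at 0 (5 arrays), 12.5 (6 arrays), 25 (5 arrays) or 100 µg/ml (6 arrays). All groups are the same line in the same medium, which the methods describe as low in serum and supplemented with murine epidermal growth factor. On every array the FE1 RNA carried the dye Cy5 and Universal Mouse Reference RNA carried Cy3. The reference is a pool of RNA from 11 mouse cell lines per the labels, and it has no replicate of its own. A log2 ratio above 0 means that a transcript was more abundant in FE1 cells than in this pool, and not that it was abundant. No array had its dyes exchanged, so any dye preference of a probe remains in its ratio. The methods report fewer separate experiments than these 5 arrays, so the arrays cannot all come from separate experiments. Neither the labels nor the methods say which arrays were independent cultures, so p-values measure only the spread between these 5 arrays.

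The epithelium of the lung is formed by flat and surfactant-producing cells in the alveoli and by ciliated, secretory, basal and neuroendocrine cells in the airways. Epithelial cells are held together by E-cadherin and tight junctions, carry keratin filaments and rest on a basement membrane of laminin and collagen IV. Immortal lines in culture commonly keep some of this program and lose other parts. A comparison with a pool of unlike lines shows which genes the line holds above or below that pool, whose own make-up enters every ratio.

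Of 55681 probes per array, 26413 (47.4%) could be matched to a symbol, for 20018 genes, and each gene is described by its brightest probe. A probe was called detected in a channel when its signal was above the limit set by the negative control spots of that array. Between 23688 and 39139 probes were detected in Cy5 and between 26381 and 43862 in Cy3. Control replicate 5 stood apart. The log2 ratios of its spike-in transcripts, RNAs of known amount added to both channels, had a slope of 0.773 on their nominal values, against 0.914 to 0.956 on the other arrays. Its gene ratios had a slope of 0.77 on the mean of the other 4 arrays, where those of the others were 0.92 to 1.08. Such a slope also falls with a lower correlation, so it does not by itself show a narrower range. Among genes detected in both channels, 654 were at least 2-fold higher and 1306 lower on replicate 5. The other arrays had 630 to 1176 and 957 to 1431. The correlation of log2 ratios between pairs of arrays ranged from 0.64 (replicates 1 and 5) to 0.92 (replicates 3 and 4) over 19485 probes, which share their sequences and the reference RNA on all arrays. Counts are therefore also given without control replicate 5.

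A gene was called higher or lower when its mean ratio was at least 2-fold, its adjusted p in limma did not exceed 0.05, and its probe was detected on at least 4 of 5 arrays in the brighter channel. By this rule 779 genes (3.89%) were higher and 1947 genes (9.73%) lower in FE1 cells than in the reference. The ratio had 1 sign on every array measured for 773 of the 779 higher genes and for 1936 of the 1947 lower genes. Differences above 10-fold were measured for 43 higher and 165 lower genes. Without control replicate 5 the counts were 894 higher and 2072 lower, and 755 and 1887 of the original calls were among them. Counted over probes, 1358 (2.44%) were higher and 3066 (5.51%) lower. The excess of lower calls depended on the scaling: 69.3% of called probes were lower after loess, 57.3% in the deposited series matrix and 96.1% after median centring. Against loess, these scalings shifted the probes detected in both channels by a median of 0.14 and -0.95, so genes within about 1 log2 unit of 0 have no settled direction, and all ratios below are relative to the loess scale.

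**Figure D1:**
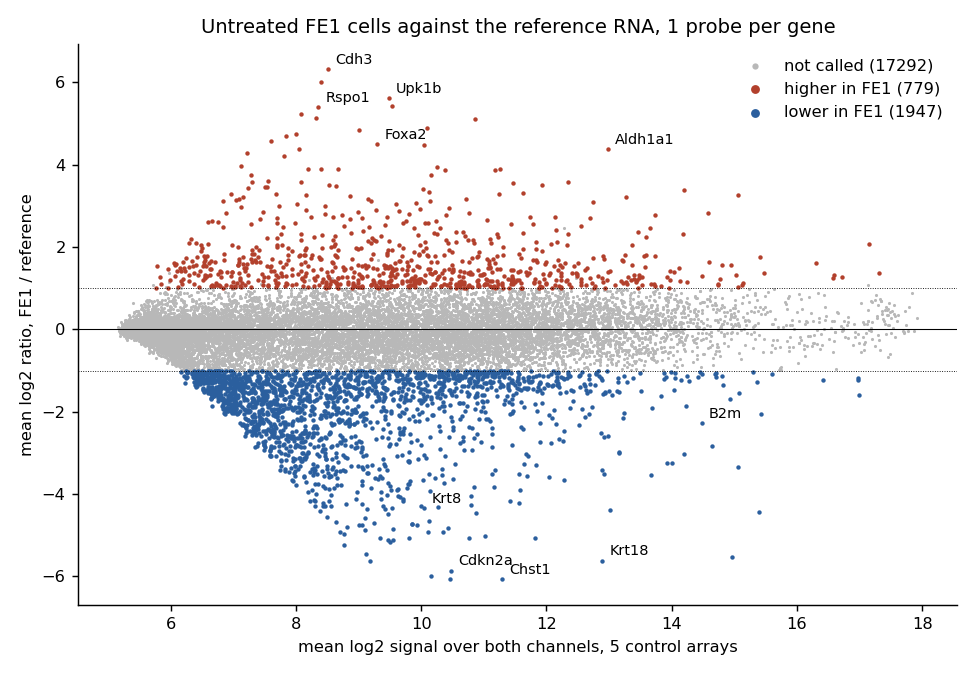
Mean log2 ratio of FE1 to reference (vertical axis) against mean log2 signal over both channels (horizontal axis) for 20018 genes, 1 probe each, over 5 control arrays. Called genes are coloured, dotted lines mark 2-fold, and a reader should see the 779 higher genes reach up to Cdh3 at 6.31, and the 1947 lower genes reach down to Chst1 at -6.07.

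The genes furthest above the reference included surface proteins, a secreted Wnt enhancer and a transcription factor of endoderm. These were taken as the 10 largest ratios among genes detected in both channels on all 5 arrays. Upk1b, a tetraspan membrane protein of urothelium and mesothelium, had log2 ratios of 5.85, 5.69, 5.98, 5.55 and 5.02 on control replicates 1 to 5. All 5 values lay above 5, and the mean of 5.62 ± 0.37 (SD, n = 5) corresponds to 49.1-fold (limma adjusted p 1.47e-06). Upk3b, another uroplakin gene, read 3.62, 4.07, 4.26, 3.83 and 3.98, and the mean was 15.4-fold above the reference. Lrrn4, which encodes a leucine-rich repeat membrane protein, read 4.99, 5.25, 5.12, 5.06 and 3.98, and replicate 5 was the lowest.

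Rspo3, a secreted enhancer of Wnt signalling, read 5.35, 4.31, 5.11, 4.69 and 4.69, with a mean of 28.4-fold (limma adjusted p 2.80e-06). Mgll, which encodes the lipase that breaks down monoglycerides, read 6.06, 5.65, 5.62 and 4.36 on replicates 1, 2, 4 and 5, and the spot of replicate 3 was left out as an outlier. Mgll has 4 probes, of which 3 were called higher and 1 lay at 0.10. Plxdc2, a plexin domain protein of the cell membrane, was among the most even genes at 5.11 ± 0.18 (SD, n = 5). Npy1r, a receptor for neuropeptide Y, had a mean of 4.49 ± 0.27, and Mst1r, a receptor tyrosine kinase of epithelia and macrophages, had 3.90 ± 0.47 (SD, n = 5 each). Aldh1a1, an enzyme that makes retinoic acid from retinal, read 4.22, 4.15, 4.52, 4.29 and 4.70. Its log2 ratio was thus above 4 on each array, with replicate 5 the highest rather than the lowest.

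Foxa2, a forkhead factor that opens chromatin in endoderm and in the lung epithelium derived from it, was far above the reference on 4 arrays and less so on the fifth. Its log2 ratios were 5.62, 5.02, 5.14, 4.78 and 1.90. The mean was 4.49 ± 1.48 (SD, n = 5; limma adjusted p 0.000545), and without replicate 5 it was 5.14. A second Foxa2 probe gave a mean of 3.84.

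The genes furthest below the reference included cell cycle, keratin and blood cell genes. Chst1, a sulfotransferase of carbohydrate chains, read -6.28, -5.45, -6.52, -6.36 and -5.73, the lowest mean of all genes, 67.2-fold below the reference (limma adjusted p 1.79e-06). Dlk1, an imprinted membrane protein of the Notch ligand family, had a mean of -6.05 ± 0.59, and Blnk, an adaptor of B cell receptor signalling, -5.98 ± 0.61 (SD, n = 5 each). Cdkn2a, the locus of the cell cycle inhibitors p16 and p19Arf, read -6.17, -5.16, -6.38, -6.07 and -5.51, which is 58-fold lower than the reference on average (limma adjusted p 2.79e-06). In each of these genes replicates 2 and 5 gave the smallest differences, and all arrays were far below 0. The other genes of this set were Krt18, Pf4, a platelet chemokine, Rhox5, a homeobox gene of reproductive tissues, Chchd10, a mitochondrial protein, Ly6c1, a surface antigen of leukocytes and endothelium, and the long non-coding RNA Gm10845. Gm10845 was the most even gene of the set at -5.53 ± 0.09 (SD, n = 5). Where these genes had several probes, all were negative, the weakest being -2.52 for Cdkn2a and -2.94 for Dlk1.

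**Figure D2:**
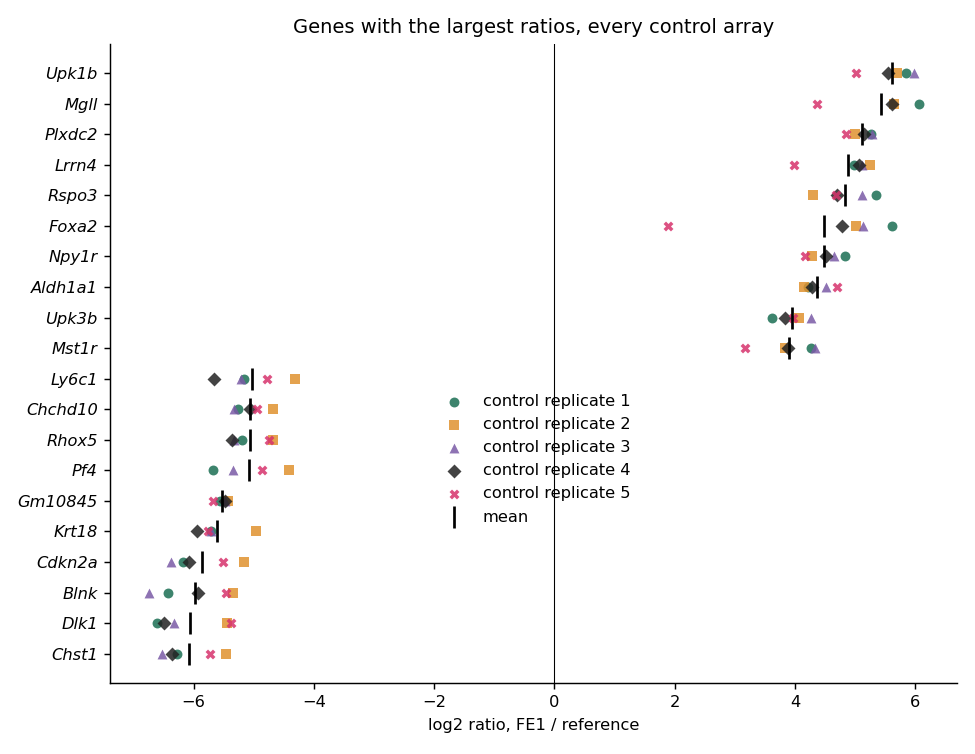
Log2 ratio of FE1 to reference (horizontal axis) on each of the 5 control arrays (symbols) and their mean (bar) for the 10 highest and 10 lowest genes detected in both channels on all 5 arrays (vertical axis). Every array lies on its own side of 0, replicate 5 of Foxa2 sits apart at 1.90, and Mgll and Pf4 have 4 values.

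Some transcripts were well above background in 1 channel only, and their ratios are bounds. In all, 309 genes were well above background in the reference on all 5 arrays and in FE1 cells on none, and 36 of these had a bound of at least 10-fold. The bound sets the mean signal of the bright channel against the higher of the dim probe's own signal and the lowest signal well above background on that array, with the channels scaled between arrays and open to dye bias. Ctss, the lysosomal protease cathepsin S of antigen presenting cells, was at least 48.7-fold lower in FE1 cells (limma adjusted p 4.54e-05). Syt13, a synaptotagmin, was at least 43.5-fold lower, Clec4d, a lectin receptor of myeloid cells, at least 36.3-fold (4 arrays measured), and the chemokine gene Cxcl1 and the ribosomal protein paralogue Rpl39l at least 30.1-fold each. In the other direction only 2 genes qualified. Sema3d, a secreted semaphorin, was at least 5.54-fold higher in FE1 cells, and Wdr17, a WD repeat protein, at least 3.76-fold. Other genes were well above background in their dimmer channel on only some arrays, and on the remaining arrays their ratios are limited by a signal near the floor. In Cy3 this was 4 of 5 arrays for Upk1b, Rspo3, Mst1r, Esrp2, Gpm6a, Lama4, Il1rap and Hoxa2. In Cy5 it was 4 of 5 arrays for Cdkn2a, Dlk1, Blnk, Pf4, Rhox5, Ly6c1, Krt8, Krt19, Cldn7, St14, Tyrobp and Cd5. Genes with fewer arrays are marked where they are described.

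By the negative control limit, 10885 genes were detected in Cy5 on all 5 arrays and 3092 on none, and 12153 genes were detected in Cy3 on all 5. The genes detected in both channels on all arrays numbered 10578. Counted over probes, 31 were detected in FE1 cells on at least 4 arrays and in the reference on at most 1, and 830 the other way round. Both counts moved with the arrays included. The Cy5 limit of control replicate 4 was 119, against 74.9 to 86.4 on the other arrays, and its Cy3 limit was 99.8, against 26.2 to 50.6. With the limit of 4 arrays relaxed to 3, leaving out 1 array gave 61 to 194 and 1014 to 4315 probes. Leaving out control replicate 4 gave 188 and 4315 of these, and leaving out control replicate 5 gave 194 and 4311. A transcript called not detected here was below the limit at this signal. With 5 arrays, precision is limited by their number.

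The first question about the untreated cells was whether they carried the marker genes of their labelled origin. Over all genes 3.89% were called higher and 9.73% lower, and the counts of every list below stand beside these shares. Genes of epithelia in general were more often lower than higher in FE1 cells. Of 25 such genes measured, 2 were higher, 10 lower and 13 not called, and the median over the 19 detected was -1.27, against -0.08 over all 13526 genes detected in either channel on at least 4 arrays. The counts were the same without control replicate 5 and in the series matrix, but the median was less firm. On single arrays it ranged from -1.63 to -0.48, and with the median over all probes of a gene it was -0.75. Since a culture is measured as a whole, fewer cells that express a gene and less RNA per cell cannot be told apart.

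Keratins of simple epithelia were the lowest of these genes. Krt18 read -5.70, -4.96, -5.71, -5.95 and -5.76, or 49-fold below the reference (limma adjusted p 1.56e-06). Its filament partner Krt8 read -4.96, -3.74, -4.51, -4.65 and -3.87, and Krt19 read -5.57, -4.55, -5.20, -5.10 and -4.13. All 3 were far below 0 on each array, although Krt8 and Krt18 were still detected in Cy5 on 5 of 5 arrays and Krt19 on 4. Krt7, another simple keratin, did not share this, at -0.31 ± 0.52 (SD, n = 5).

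Among junction genes, Cdh1, which encodes E-cadherin, was detected in Cy5 on 0 of 5 arrays and in Cy3 on 3, with a ratio of -0.32 ± 0.23 (SD, n = 5) that was not called. Epcam, an adhesion protein of most epithelia, was not well above background in Cy5 on any array and was at least 5.52-fold lower (3 arrays measured), a call that was lost without replicate 2 (limma adjusted p 0.0554). Cldn7, a claudin, was lower at -2.11 ± 0.45, and St14, a membrane protease, at -2.39 ± 0.57 (SD, n = 5 each). Tjp1, the tight junction scaffold ZO-1, was detected on all arrays and not called at 0.53 ± 0.19. The 2 genes above the reference were Esrp2, a splicing factor of epithelia, at 2.04 ± 0.40, and Cdh3, which encodes P-cadherin. Cdh3 read 6.49, 6.30, 6.14, 6.73 and 5.90, the largest mean ratio of all genes, and was detected and well above background in Cy3 on only 3 arrays (limma adjusted p 7.57e-07).

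Several defining markers of the lung cell types were not detected in FE1 cells, while other genes of the same lists were called in either direction. Nkx2-1, the transcription factor that specifies lung, and Sftpa1, Sftpb and Slc34a2, genes of surfactant-producing type II cells, were each detected in Cy5 on 0 of 5 arrays. Of the 14 type II genes, 3 were well above background in neither channel on any array, beside 3292 of 20018 genes over all. A gene absent from both channels does not set FE1 cells apart from the reference. Sftpc was detected on 3 arrays, at 0.43 ± 0.19 (SD, n = 5), and in the reference on 1. Of 14 type II genes, only Ctsh, a lysosomal protease not limited to these cells, was higher, and Napsa, Lyz2 and Abca3 were lower, Abca3 only just, with -0.99 and no call without replicate 5. Of 15 type I genes 3 were higher and 3 lower. Hopx, a homeodomain protein without DNA binding, was 5.03-fold higher (limma adjusted p 2.82e-05), and Sema3e and Cav1 were the other two. Igfbp2, Aqp5 and Clic5 were lower.

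Of the airway lists, 13 club and goblet cell genes included 2 that were higher, Aldh1a1 and Bpifb1, and 3 that were lower, Cbr2, Upk3a and Cyp2f2. Scgb1a1, the main secretory protein of club cells, was detected in Cy5 on 4 arrays with a ratio of 0.35 ± 0.17. None of 10 genes of ciliated cells was higher and 2 were lower, beside 3.89% and 9.73% over all genes. Foxj1, their master regulator, was detected in Cy5 on 0 of 5 arrays. Of 10 basal cell genes, Krt14 was higher, with values of 1.57, 1.77, 2.04, 1.74 and 2.08, and Itga6, an integrin of hemidesmosomes, was lower, with values of -4.40, -4.31, -4.29, -4.00 and -4.30. Both were even across arrays, and 8 basal cell genes were not called, among them Trp63 and Krt5. Uchl1 was the only one of 8 neuroendocrine genes called, at 1.33 ± 0.45 (SD, n = 5), with Cy3 well above background on 3 arrays.

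**Figure D3:**
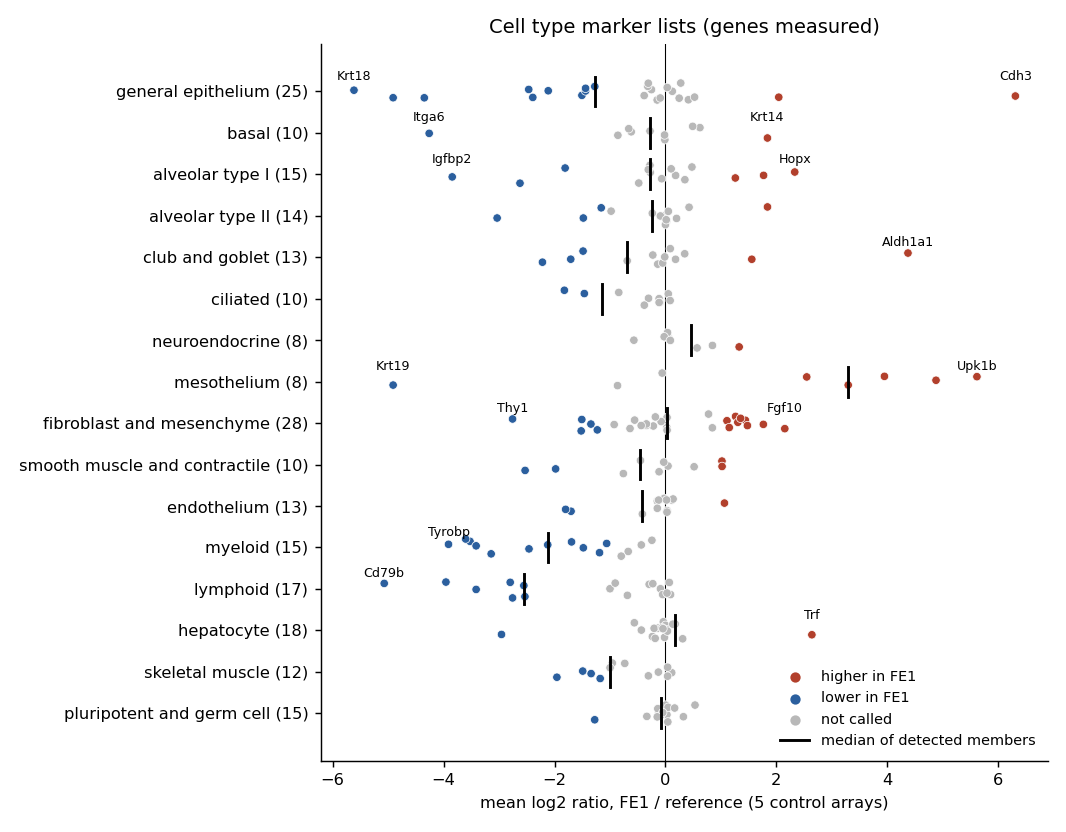
Mean log2 ratio of FE1 to reference (horizontal axis, 5 control arrays) of each measured gene in 16 cell type lists (vertical axis, number of genes in parentheses), with the median of the detected members as a bar. The mesothelium list sits highest with a median of 3.30, and the myeloid (-2.12) and lymphoid (-2.54) lists lowest. The lists were chosen with earlier results of these data known.

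Genes known from mesothelium, the lining of the pleura, were the list with the highest median. Of 8 measured, 5 were higher (Upk1b, Lrrn4, Upk3b, Gpm6a and Wt1), Krt19 was lower, and Msln and Cd200 were not called (without replicate 5 Cd200 was called lower, just past 2-fold). The median of the 7 detected was 3.30, and on the single arrays it ranged from 2.98 to 4.10. Wt1, a zinc finger factor of mesothelium and kidney, read 2.99, 2.45, 2.54, 2.53 and 2.23 (limma adjusted p 9.49e-06). Gpm6a, a membrane glycoprotein, read 2.98, 2.98, 4.10, 3.34 and 3.08, all well above 0. Msln, which encodes mesothelin, was detected on every array at -0.06 ± 0.41 (SD, n = 5). Several of these genes are also expressed outside mesothelium, so the list gives no cell type name to the line, and the cells are called FE1 cells throughout.

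The list of fibroblast and mesenchyme genes was split. Of 28 measured, 9 were higher, 5 lower and 14 not called, beside 3.89% higher and 9.73% lower over all genes. The median over 24 detected was 0.03. The higher genes included Fgf10, a growth factor of lung mesenchyme, at 2.15 ± 0.22, the collagen genes Col1a1 (1.77 ± 0.22), Col1a2 and Col3a1, the factor Twist1 (1.48 ± 0.26) and Cdh2, which encodes N-cadherin (1.44 ± 0.37; SD, n = 5 each). Thy1, a surface antigen of fibroblasts and T cells, was lower at -2.76 ± 0.43, as were the receptors Pdgfra and Pdgfrb, the factor Twist2 and the proteoglycan Lum. Vim, the intermediate filament of mesenchyme and of most cultured lines, was measured on 4 arrays at -0.44 ± 0.46 (SD) and was not called. Col3a1 was not called without replicate 5, at 0.89. Under median centring 1 fibroblast gene was higher and 11 lower. Of 10 smooth muscle genes Acta2 and Cald1 were higher by just over 2-fold and Des and Actg2 lower, and neither call was firm. Acta2 was not called without replicate 2, 3 or 5 (means of 0.95 to 0.99), nor was Cald1 without replicate 3, 4 or 5 (means of 0.94 to 0.98).

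In the leukocyte lists all called genes were lower, beside 9.73% lower and 3.89% higher over all genes. Of 15 myeloid genes 0 were higher and 11 lower, for example Tyrobp at -3.91 ± 0.48 and Csf1r at -3.52 ± 0.55 (SD, n = 5 each), although another Csf1r probe lay at -0.16. Of 17 lymphoid genes 0 were higher and 7 lower, led by Cd79b at -5.07 ± 0.86 (well above background in Cy5 on 3 arrays) and by Ms4a1, which was at least 15.2-fold lower. Ptprc, the pan-leukocyte antigen CD45, was well above background in Cy5 on 3 of 5 arrays and lower at -3.41 ± 0.75. Endothelial genes (13 measured) gave 1 higher, Eng, which at 0.95 was not called without replicate 3, and 2 lower, and Cdh5, Tek and Tie1 were detected in Cy5 on 0 of 5 arrays. Of 18 liver genes 9 were detected in Cy5 on no array, Alb among them, where over all genes this was so for 3092 of 20018. In neither channel well above background on any array were 9 liver and 5 endothelial genes. Such absences do not set FE1 cells apart from the reference. Of the liver genes 1 was higher, Trf, the iron carrier transferrin, at 2.64 ± 0.42 (limma adjusted p 3.09e-05), and 1 lower, the fetal serum protein gene Afp, at -2.96 ± 0.61 with Cy5 well above background on 2 arrays. Of 15 genes of pluripotent and germ cells 0 were higher and Dnmt3l was lower, though not without replicate 1 (-0.99), and of 12 skeletal muscle genes 0 were higher and 4 lower.

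The second question was which regional identity genes the cells expressed. Of 24 factors of endoderm and lung patterning 5 were higher, 3 lower and 16 not called, beside 3.89% higher and 9.73% lower over all genes. The median over 16 detected was -0.16. Beside Foxa2, the GATA factors Gata4 (1.31 ± 0.25) and Gata6 (1.35 ± 0.79), the forkhead gene Foxp1 (1.15 ± 0.30) and the homeobox gene Irx1 (1.04 ± 0.15) were higher (SD, n = 5 each). Gata6 read 1.40, 1.57, 1.91, 1.87 and -0.01, so that replicate 5 alone was near 0, and Irx1 was not called without replicate 1, at 0.99. Foxa1, a relative of Foxa2, went the other way and was at least 4.98-fold lower, not well above background in Cy5 on any array. Id2, an inhibitor of helix-loop-helix factors that marks lung tip progenitors, read -3.81, -3.92, -3.88, -3.65 and -3.38 (limma adjusted p 1.57e-06). Sox9 and Etv5, other tip genes, were below 0 by less than 2-fold and were not called (Etv5 was called without replicate 1, at -1.04), and Sox2 was detected in Cy5 on 1 array.

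Hox genes, whose order along the clusters follows the body axis, were divided by position. Of 23 measured genes of paralogue groups 1 to 8, 11 were higher and 2 lower. Of 16 genes of groups 9 to 13, 0 were higher and 5 lower, beside 3.89% and 9.73% over all genes. Only 29 of the 39 Hox genes were detected in either channel on at least 4 arrays, and the rest could not be called. The rest were Hoxb1, Hoxc8, Hoxd1 and Hoxd3 in groups 1 to 8. In groups 9 to 13 they were Hoxa13, Hoxc12 and Hoxd10 to Hoxd13. The series matrix gave 13 higher and 2 lower in groups 1 to 8 and 0 higher and 2 lower in groups 9 to 13, and under median centring 5 and 0 were higher. All 11 higher genes lay in the Hoxa, Hoxb and Hoxc clusters, and no gene of the Hoxd cluster was higher. Hoxa5, which is needed for lung formation in the mouse, had the largest ratio and read 3.67, 3.12, 2.28, 2.59 and 1.23 (limma adjusted p 0.000836). The lowest were Hoxa11, at least 5.1-fold lower, and Hoxd8, at least 4.81-fold lower, both not well above background in Cy5 on any array. The same held for Hoxa10, Hoxc11 and Hoxd9, at least 2.42-fold, 3.99-fold and 2.26-fold lower. Hoxc6 (-1.10 ± 0.30) was the other lower gene of groups 1 to 8. Replicate 5 gave the smallest ratio for Hoxa5, Hoxb2, Hoxb4 and Hoxa2, each of which was still above 1 there.

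**Figure D4:**
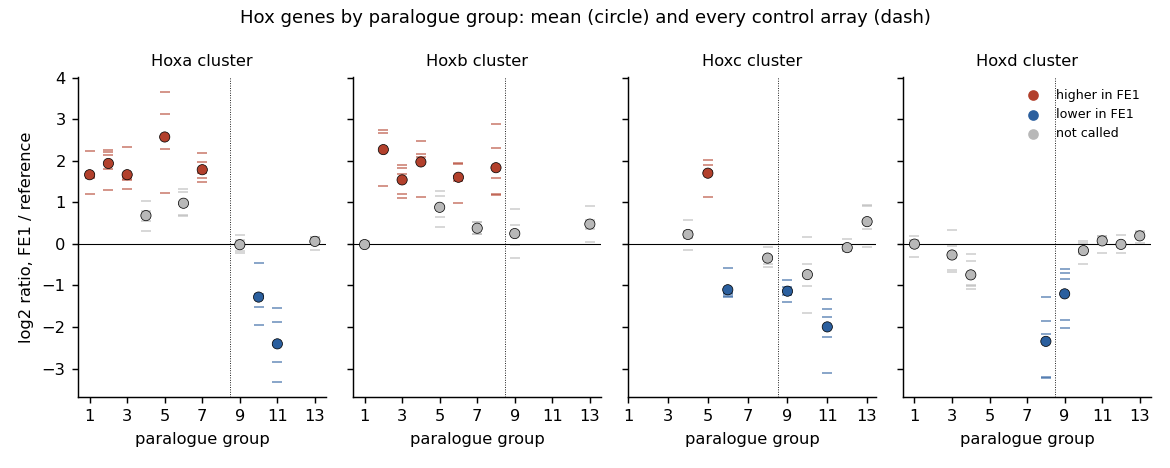
Log2 ratio of FE1 to reference (vertical axis) of 39 Hox genes by paralogue group (horizontal axis) in the 4 clusters, as the mean (circle) and the single control arrays (dash). The dotted line parts groups 1 to 8, with 11 higher and 2 lower genes, from groups 9 to 13, with 0 higher and 5 lower. Genes detected on fewer than 4 arrays in both channels appear as not called.

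Of the genes that differ by chromosomal sex, the Y-linked genes Eif2s3y and Ddx3y were higher than in the reference. Eif2s3y, a translation factor subunit, read 3.42, 2.89, 3.19, 2.98 and 2.17, and Ddx3y, an RNA helicase, read 1.59, 1.75, 2.50, 2.52 and 1.52. Kdm5d and Uty were not called, and neither was detected in Cy5 on more than 3 arrays. Xist, the RNA that silences an X chromosome in female cells, read -3.61, -2.70, -3.67, -2.78 and -0.16. It was lower (limma adjusted p 0.00584), detected in Cy5 on 1 array, and replicate 5 stood near 0. Without replicate 5 its mean was -3.19. Since Cy5 was well above background on 1 array only, these values are limited by the floor of the FE1 channel and do not measure the size of the difference.

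FE1 cells are used in toxicology, and genes of foreign compound metabolism were therefore described. Of 28 measured, 3 were higher, 6 lower and 19 not called, beside 3.89% higher and 9.73% lower over all genes. The median over 23 detected was 0.06. The aryl hydrocarbon receptor gene Ahr, the sensor of dioxins and polycyclic hydrocarbons, read 2.49, 1.33, 1.98, 1.86 and 2.09 on its brighter probe (limma adjusted p 0.00011), while its second probe gave 0.30. The receptor's target Cyp1b1 read 1.69, 1.72, 1.77 and 1.81 on the 4 arrays measured, and the targets Cyp1a1 and Cyp1a2 were detected in Cy5 on 0 of 5 arrays. Of the 28 genes, 3 were well above background in neither channel on any array. The lower genes were the glutathione transferases Gstm1 (-1.99 ± 0.25) and Gsta1 (at least 5.6-fold lower), Por, the electron donor of the cytochromes P450 (-1.36 ± 0.19), Cyp2s1 (-1.44 ± 0.21), Aldh3a1 (-1.37 ± 0.22) and the quinone reductase Nqo1 (-1.40 ± 0.65; SD, n = 5 each). The regulators Nfe2l2 and Keap1 were not called, at -0.71 ± 0.55 and 0.45 ± 0.13.

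In the EGF family 1 of 12 genes was higher and 2 were lower, beside 3.89% and 9.73% over all genes. Egfr was higher on its brightest probe, with values of 2.25, 1.27, 1.39, 1.09 and 1.03, and the weakest of its 3 probes gave 0.23. Of the ligands, Ereg, epiregulin, was lower at -1.37 ± 0.20 (SD, n = 5), and Areg, amphiregulin, was at least 2.76-fold lower and detected in Cy5 on 0 of 5 arrays. Hbegf had -0.98 ± 0.12 (SD) on the 4 arrays measured, just short of 2-fold, and was called lower without replicate 2 or 5, at -1.02 and -1.01. The other 8 genes of the family, among them Egf, Tgfa and Erbb2, were not called.

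Genes that hold back the cell cycle were in part lower than in the reference, and most genes of proliferation were not called. Of 12 inhibitors and p53 pathway genes 0 were higher and 6 lower, beside 3.89% and 9.73% over all genes. Besides Cdkn2a, its neighbour Cdkn2b, which encodes p15, read -4.51, -3.62, -5.24, -4.37 and -3.33 and was at least 18.3-fold lower. The retinoblastoma gene Rb1 was lower on all arrays, at -2.58, -2.40, -2.12, -1.76 and -1.38, as were its relative Rbl1 and the inhibitors Cdkn1c and Cdkn2c. Rbl1 was close to the threshold, at -0.97 and -0.99 without replicates 1 and 2 and then not called. Trp53 and its target Mdm2 were not called, at 0.68 ± 0.58 and 0.54 ± 0.19, nor was Cdkn1a (-0.29 ± 0.53), whose other probe gave 1.27. Of 18 proliferation genes 17 were detected in Cy5 on all 5 arrays, only the mitotic cyclin Ccnb2 was called (1.14 ± 0.18), and the median over the 17 was 0.02. Under median centring 0 proliferation genes were higher and 7 lower.

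Basement membrane genes were split within families. Of 20 measured, 6 were higher, 4 lower and 10 not called, beside 3.89% higher and 9.73% lower over all genes. The laminin chain gene Lama1 read 4.10, 2.39, 3.88, 4.02 and 2.04, with the 2 smallest values on replicates 2 and 5, and was detected in Cy3 on 3 arrays and well above background there on 2 (limma adjusted p 0.000366). Lama4 (2.55 ± 0.67), Lamb1 (1.32 ± 0.15) and the collagen IV genes Col4a1 (2.12 ± 0.46), Col4a2 (1.59 ± 0.37) and Col4a6 (2.28 ± 0.30) were also higher (SD, n = 5 each). Lamb3, a chain of the laminin under stratified epithelia, was lower at -2.70 ± 0.58, limited by a Cy5 signal well above background on 1 array, as were Lama2, the proteoglycan Agrn and the linker Nid1. Its partner chain Lama3 was not called. Without control replicate 5 the list gave 8 higher and 3 lower, with Nid1 not called at -0.97.

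Genes of particle uptake and innate sensing were described because the line was exposed to particles. Of 26 measured, 2 were higher, 8 lower and 16 not called, beside 3.89% higher and 9.73% lower over all genes. The median over 24 detected was -0.38. Nod1, an intracellular sensor of bacterial cell walls, read 2.62, 2.15, 2.19, 2.22 and 2.46 (limma adjusted p 6.81e-06), and Il1rap, a subunit of the interleukin 1 and 33 receptors, had 1.20 ± 0.35 (SD, n = 5). Il1rl1, the other subunit of the interleukin 33 receptor, was lower at -4.18 ± 0.31, and its ligand gene Il33 was detected on all arrays at 0.77 ± 0.62 and not called. The inflammasome genes Pycard (-1.99 ± 0.32) and Casp1 were lower, Casp1 at -3.80 ± 0.79 with Cy5 well above background on only 2 arrays, as were Tlr2, Nod2 and the scavenger receptors Msr1, Cd36 and Scara3. Marco, a scavenger receptor of alveolar macrophages, and Nlrp3, a further inflammasome sensor, were not called.

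Genes often taken as constant were not all level with the pool. Of 10 measured, Ppia, cyclophilin A, was higher, with values of 1.83, 1.12, 0.95, 0.52 and 2.42, and B2m (-2.27 ± 0.15), Pgk1 (-2.05 ± 0.34) and Gusb (-1.03 ± 0.38) were lower (SD, n = 5 each). Gusb was not called without replicate 1, at -0.89, nor without replicate 2, just short of 2-fold. Actb, Gapdh and Tbp were closest to the reference, at 0.34 ± 0.31, 0.03 ± 0.23 and 0.06 ± 0.17. All 10 were detected in Cy5 on every array.

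The last question was how much the untreated arrays varied among themselves. The median SD of the log2 ratio was 0.281 over probes detected in both channels on all 5 arrays, and 87.0% of those with 5 values had an SD under 0.5. In all, 137 probes had an SD above 1. Of the 10 named probes with the largest SD, 7 were split by slide and 3 by control replicate 5. Control replicates 1 and 2 lay on slide 1, replicate 3 on slide 3, replicate 4 on slide 2 and replicate 5 on slide 4. In a comparison chosen after the data were seen, both slide 1 arrays exceeded the other 3 by at least 1 log2 unit for 164 of 17527 probes, and for 1 probe they were lower by as much.

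Syt10, a synaptotagmin gene, had the largest SD and read 5.26, 5.08, 0.41, 0.70 and 0.91. The 6 exposed arrays on slide 1 read 4.96 to 5.50, and the 11 exposed arrays on other slides -0.06 to 2.44. Tox4 read 5.07, 5.15, 0.69, 1.14 and 0.79, while its second probe had a mean of -0.55 with an SD of 0.21. With such a spread the call of Tox4 as higher was lost on leaving out any of replicates 1 to 4 (means of 1.92 to 3.04), and Syt10, not called with all 5 arrays, was called only on leaving out replicate 5 (2.86). Pdia4, Prcc, Prm1, Rpgrip1 and H2bc18 showed the same split by slide. Of the 164 probes, 142 had all 6 exposed arrays of slide 1 above all 11 other exposed arrays and 29 were among the probes called higher (2.14% of those). Which cultures went onto which slide is not given in the sources used here, so slide and culture cannot be told apart.

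Among the controls, Arhgef6, Cd5 and Eva1b differed through control replicate 5 alone. Arhgef6, an exchange factor for small GTPases, read -4.88, -3.80, -4.98, -3.90 and -0.48, and Cd5, a lymphocyte antigen, read -4.46, -2.76, -4.24, -3.06 and 0.30. Without replicate 5 their means were -4.39 and -3.63, and Cd5 was not called without replicate 2 or 3 (-2.87 and -2.50). Eva1b read -4.55, -4.06, -5.13, -4.73 and -0.52, and its second, brighter probe had a mean of -3.93 with an SD of 0.32. One exposed array, low dose replicate 4 on slide 2, also gave higher values than the other exposed arrays for these probes. It read -2.59 for Arhgef6, -0.32 for Cd5 and -2.38 for Eva1b. The medians of the exposed arrays outside slide 1 were -3.89, -3.08 and -4.44. Replicate 5 lay outside the range of the other 4 arrays by at least 1 log2 unit for 265 probes and replicate 1 for 166, against 1 to 5 for the other arrays.

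**Figure D5:**
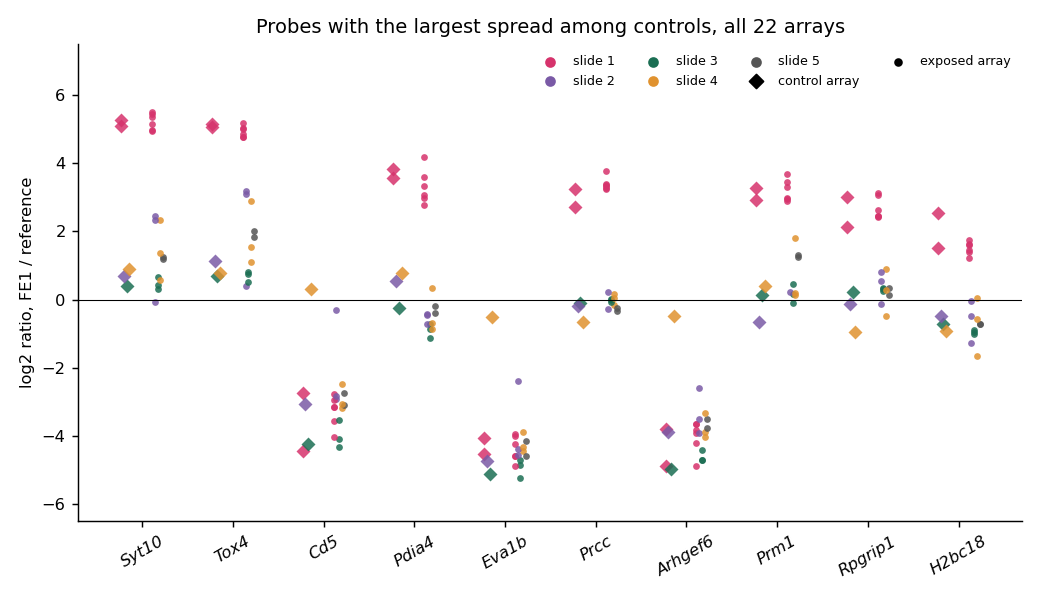
Log2 ratio of FE1 to reference (vertical axis) on all 22 arrays for the 10 probes with the largest SD among controls (horizontal axis), with control arrays as diamonds, exposed arrays as circles and colours for the 5 slides. For Syt10 the slide 1 arrays lie at 4.96 or above and all others at 2.44 or below, while Cd5, Eva1b and Arhgef6 have a single control on slide 4 near 0.

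The same fit was made within each exposed group, which shares the reference RNA with the controls, so that similar ratios follow in part from the shared pool. Of all probes, 2.44% were higher and 5.81% lower at the low dose, 2.8% and 5.94% at the medium dose, and 2.63% and 6.24% at the high dose. The mean log2 ratio of Upk1b was 5.62 in controls and 5.55, 5.48 and 5.17 at the 3 doses in rising order. For Foxa2 the means were 4.49 and 4.31, 4.52 and 3.89, and for Rspo3 4.83 and 3.04, 3.13 and 2.64. Krt18 had -5.62 and -5.60, -5.80 and -5.63, and Cdkn2a -5.86 and -5.21, -5.95 and -5.65. These are values side by side, and no test between groups was made here.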

How the data were processed

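Untreated FE1 cells (5 arrays) were compared with a reference RNA within each 2-colour Agilent array. The deposited scanner files hold the median spot intensity of both channels and of the local background, extracted by the authors without normalization (Feature Extraction 10.7.3.1 per the file headers, mouse build mm9). The log10 ratio deposited beside them was computed by the scanner software, and served as an alternative. The authors' series matrix holds log2 ratios whose normalization is not stated. Its control columns each correlated best with their own array (r 0.912 to 0.989), with Cy5 over Cy3 as direction. It served as an alternative, with medians from 0.01 to 0.03 per control column. How they were centred and scaled is unknown.

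Control spots were left out, spots marked as outliers were dropped, and the log2 ratio of Cy5 to Cy3 intensity, without background subtraction, was normalised by loess (limma 3.58.1, R 4.3.3). Spots of 1 probe were combined by their median. The ratio was tested against 0 with lmFit and eBayes, with Benjamini-Hochberg adjustment over 55681 probes. Detection required a signal above the 5% trimmed mean plus 3 trimmed SDs of 308 negative control spots. A probe was well above background by the scanner's own mark. Symbols came from matching accessions to RefSeq (GRCm38.p6), for 26413 probes. Of 419 listed genes 414 were measured. Named genes were the 10 largest ratios each way, the 5 largest bounds, the 10 largest SDs and members of 26 lists. Members and lists were chosen with earlier results of these data known. The test was checked on simulated data. Alternatives were other normalizations and filters, fold and detection limits, the slide as a random block, all 22 arrays in 1 fit, and leaving out each array.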

Additional observations from a re-analysis of the deposited data

Results flagged for a closer look

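For each value of the 5 control arrays, the gap between the highest or lowest array and its nearest neighbour was divided by the whole range, and values above 0.71 were looked at again. Of 213 values tested, 18 passed, 11 of them through control replicate 5. Chance puts about 1 in 20 such groups past this limit, and over 9517 genes detected in both channels 660 (6.93%) were past it. The 213 values include genes named for a large SD over these same arrays and measures of the arrays themselves. The 18 of 213 therefore cannot be read against these rates.

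Replicate 5 lay apart for Foxa2 (0.773), Lrrn4 (0.796), Gata6 (0.736), Abca3 (0.802), Nfe2l2 (0.723) and Nid1 (0.801), where it gave the lowest log2 ratio, and for Arhgef6 (0.737) and Xist (0.724), where it gave the highest. Its values for Foxa2 (1.90) and Gata6 (-0.01) were nearer to 0 than on the other arrays, while those for Abca3 (-1.81), Nfe2l2 (-1.67) and Nid1 (-1.70) were further from 0. Replicate 5 also had the lowest spike-in slope (0.772 of the range), the lowest slope of the loess ratio on the scanner's own ratio (0.926) and the fewest probes well above background in Cy3 (0.763). The part of this array's signal in these genes was not tested.

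Replicate 1 lay apart for Hoxc6 (0.865), Idi1 (0.800) and Tgfa (0.731). Replicate 2 was the least negative for Krt18 (0.754), at -4.96. Replicate 3 was the lowest for Isg15 (0.712), at -3.33. Replicate 4 was the least negative for Itga6 (0.715), at -4.00, and had the highest Cy5 detection limit (0.741). The sign of Krt18, Isg15, Itga6 and Idi1 was the same on all 5 arrays.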

How the results depend on the processing

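The count of higher probes, 1358, became 417 under median centring, 2169 with the scanner's own log ratio, 3273 at 1.5-fold and 254 at 4-fold. The count of lower probes, 3066, became 10395 under median centring, 5593 at 1.5-fold and 910 at 4-fold. With 1 array left out they ranged from 1213 to 1634 and from 2872 to 3303. With the series matrix they were 1686 and 2262, with normexp 1207 and 2713, and with the slide as a random block 1321 and 3044. Probes detected in FE1 cells and not in the reference, 31, came to 1 when all 5 arrays against none were required and to 61 to 194 with 1 array left out. Probes detected in the reference and not in FE1 cells, 830, came to 4267 by the scanner's own mark, 205 for all 5 arrays against none, and 1014 to 4315 with 1 array left out. The median SD of 0.281 ranged from 0.238 to 0.297 with 1 array left out. Over genes, 258 were higher and 6196 lower under median centring, and 929 and 1511 in the series matrix.

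None of the named genes changed sign while called, although 4 of the 779 higher genes were below 0 under median centring. Of the 217 genes named, 163 of them called, 28 lost their call under median centring and 10 gained one, and the series matrix took away 4 and gave 1. Of 26 list medians, 24 moved by more than the spread between arrays under median centring, 7 with the scanner's ratio and 4 in the series matrix. Of 46 named genes with several probes, 20 moved when the median over their probes replaced the brightest. The causes were not tested. No paired analysis was possible because the untreated cells are 1 group, set against the reference on the same array. Signal over background limits the low genes: 11743 probes were detected in neither channel on more than 1 array. The dye bias of single probes could not be measured, since no array had its dyes exchanged.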

Other observations

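The lists in this section were written after the values were seen, so their counts are a description. Over all genes, 3.89% were called higher and 9.73% lower. Genes of sterol synthesis were high together. Of 22 measured, 16 were higher and 0 lower, with a median of 1.44, beside -0.08 over all detected genes. Idi1, which makes the isoprenoid unit dimethylallyl diphosphate, read 2.97, 2.32, 2.39, 2.45 and 2.37. Msmo1, a sterol oxidase, read 2.69, 2.07, 2.30, 1.80 and 2.29, and Hmgcs1, which makes the precursor of mevalonate, 1.80 ± 0.24 (SD, n = 5). The median of the list was 1.36 to 1.39 on replicates 1 to 4 and 1.23 on replicate 5, but under median centring 3 genes were higher and 1 lower.

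Genes that interferon induces were low together, with 0 of 27 higher and 20 lower, beside 3.89% and 9.73% over all genes. The median over 25 detected was -2.29. Oas1a, a sensor of double-stranded RNA, read -5.35, -4.56, -5.63, -5.52 and -4.55 with Cy5 well above background on 3 arrays, and Isg15, a ubiquitin-like modifier, read -2.83, -2.64, -3.33, -2.80 and -2.63. The related list of antigen presentation had 0 of 18 higher and 12 lower. H2-K1, a class I heavy chain, read -2.46, -2.32, -2.52, -2.63 and -2.43, and Psmb8, a subunit of the immunoproteasome, -3.50 ± 0.44 (SD, n = 5). Psmb8, Psmb9 and Tap1 stand on both lists. Tap1, with Cy5 well above background on 2 arrays, was not called without replicate 4, at -0.98.

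Of 27 genes of hypoxia and glycolysis 0 were higher and 19 lower, beside 3.89% and 9.73% over all genes, with a median of -1.82. Egln3, an oxygen sensor that hypoxia induces, was lower at -4.25 ± 0.57 (Cy5 well above background on 3 arrays), Slc16a3, a lactate exporter, at -3.82 ± 0.44, and Slc2a1, a glucose transporter, at -2.53 ± 0.54 (SD, n = 5 each). Of 22 immediate early genes, which serum and growth factors induce, 0 were higher and 15 lower, with a median of -1.57 over 21 detected. Egr1 read -4.88, -4.24, -3.92, -3.91 and -4.12, and Fos, with Cy5 well above background on 3 arrays, read -4.87, -4.20, -4.89, -4.44 and -3.42. Both lists had the same counts without control replicate 5.

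The Wnt pathway was split, with 7 of 43 genes higher and 7 lower, beside 3.89% and 9.73% over all genes. Rspo1, like Rspo3 a secreted enhancer, read 6.14, 5.30, 5.97, 5.53 and 4.06 and was detected in Cy3 on 3 arrays. The ligands Wnt9a (2.21 ± 0.28), Wnt11 (2.05 ± 0.24) and Wnt5a (1.87 ± 0.47) and the receptors Fzd8 (2.32 ± 0.40) and Fzd4 (2.10 ± 0.62) were higher (SD, n = 5 each). Wnt10a (-4.08 ± 0.50), Wnt6 and Wnt4 were lower, as was Rnf43, which removes Wnt receptors from the surface (at least 4.64-fold). Lgr5 and Lgr4, receptors of R-spondins, were detected in Cy5 on 1 and 2 arrays.

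Around Cdkn2a, the neighbours in the order of RefSeq genes of GRCm38.p6 were looked up after its value was seen. Mtap, on one side, an enzyme of methionine salvage, was at least 10.5-fold lower and not well above background in Cy5 on any array (4 arrays measured). Cdkn2b, on the other side, was low as described. The next gene beyond Mtap, Wincr1, was detected in Cy5 on 2 arrays and in Cy3 on 0, and the next beyond Cdkn2b, Dmrta1, on 1 array in each channel, so neither could be read as low or level. Zfp352, which follows Dmrta1, was detected in both channels on all 5 arrays and was not called, at -0.20 ± 0.51 (SD, n = 5), though at -1.19 under median centring it was called lower. On the other side Ifna1 was detected on 4 arrays at 0.13. No DNA measurement was analysed here, and the copy number of this region was not tested.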
